A study of Homo sapiens with 2 samples.

Results

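Cytosolic ribosomal proteins are the protein components of the ribosomes that translate mRNA in the cytoplasm. The genes were found by name in a table of read counts: symbols made of RPL or RPS and a number, with or without a final A, X or L, together with RPLP0, RPLP1, RPLP2 and RPSA. The rule found 81 of the 60649 rows, 49 of the large subunit and 32 of the small subunit. Each name occurred once. RPS29 was kept apart from the other 80, because a different RNA gene lies inside its span.

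The series holds 2 libraries made by RIP (RNA immunoprecipitation): an antibody pulls a protein out of a lysate, and the RNA that comes with it is sequenced. Both came from wild-type MDA-231 cells, an established human breast cancer line, grown in DMEM with serum and then treated without serum for 16 h with P4G11, an antibody to beta-1 integrin, beside which the labels also list E7-s. The first RIP used an antibody to MT1-MMP, a membrane-bound matrix metalloproteinase, although its sample title reads MMP1. The mock RIP used rabbit IgG, and its cell line tag reads MDA-232. There was 1 library of each kind, both from treated cells, so no difference below has a replicate check and no p-value was computed. In bulk libraries, fewer cells of a type and less RNA per cell cannot be told apart.

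Every ribosome is built from ribosomal RNA and one copy of most of these proteins, the small subunit reading the mRNA and the large subunit joining amino acids. Their mRNAs are short, spliced and among the most abundant in growing cells. Most begin with a 5′ terminal oligopyrimidine (TOP) tract, a C followed by an unbroken run of C and T, which ties their translation to growth signals through mTOR and the protein LARP1. Many of the genes also carry small nucleolar RNAs (snoRNAs), which guide ribosomal RNA modification, in their introns.

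The TOP tract is shown here because it is the sequence feature that most members share and that the name rule did not use. RefSeq start sequences (GRCh38.p14, from 250 bases before to 50 bases after the annotated start) matched 64 of the 81 members by symbol. A TOP start was taken as a C at the annotated first base followed by at least 4 bases that are each C or T, on the gene's own strand. It was found in 42 of the 64 members (65.6%), in 25 of 39 of the large subunit and 17 of 25 of the small subunit, against 715 of 15391 protein-coding rows with such a sequence (4.65%). Below are 30 bases around the start for members that recur in the results, 15 before it and 15 from it on, 5′ to 3′. Capitals mark the pyrimidine run that begins at the first transcribed base. RPS21, RPS27, RPLP2 and RPL13A were among the genes lowest in the MT1-MMP library relative to IgG, RPLP0 had the most IgG counts apart from RPS29, RPS24 and RPL31 were among the genes least shifted, and RPS27L is the copy of RPS27 that was not shifted.
RPS21 (chr20:62387088-62387117, plus strand): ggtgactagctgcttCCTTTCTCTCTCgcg
RPS27 (chr1:153990747-153990776, plus strand): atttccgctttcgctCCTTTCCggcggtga
RPLP2 (chr11:809952-809981, plus strand): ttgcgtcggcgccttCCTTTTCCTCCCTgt
RPL13A (chr19:49487593-49487622, plus strand): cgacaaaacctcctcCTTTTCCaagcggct
RPLP0 (chr12:120201097-120201126, minus strand): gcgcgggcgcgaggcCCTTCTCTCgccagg
RPS24 (chr10:78033848-78033877, plus strand): cggcgaatcgtggttCTCTTTTCCTCCTTg
RPL31 (chr2:101002274-101002303, plus strand): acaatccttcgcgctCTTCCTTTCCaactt
RPS27L (chr15:63157463-63157492, minus strand): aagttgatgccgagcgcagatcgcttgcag

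All of these but RPS27L begin with a pyrimidine run, of 7 bases in RPS27 and RPL13A and up to 14 in RPS24. The RPS27L start has none.

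The rows summed to 31636000 counts for the MT1-MMP RIP and 13003668 for the IgG RIP. A block of 28 rows of ribosomal DNA on chromosome 21 took 10.2% and 92.6% of them, so the scale between the libraries matters. The main scale was the trimmed mean of M-values (TMM), which sets the typical row near a ratio of 1, and on it 45.9 MT1-MMP counts equal 1 IgG count. With plain CPM (counts scaled by the library total) 2.43 MT1-MMP counts equal 1 IgG count, and every log2 ratio lies 4.24 higher. With totals outside the block it lies 0.64 higher. The 6 markers of the mesenchymal line (VIM, CD44, EGFR, CAV1, AXL and ITGB1) summed to 2808 CPM with the MT1-MMP antibody and 161 CPM with IgG, against 28.6 and 2.38 CPM for 6 luminal markers (ESR1, PGR, GATA3, ERBB2, CDH1 and EPCAM). The 4 leukocyte markers (PTPRC, CD3E, CD68 and LYZ) summed to 80 and 26 counts. PGR, CDH1, PTPRC, CD3E and LYZ were at 0 in the IgG library.

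Ribosomal protein genes lay far to the IgG side of the typical row in both subunits. Of the 80 without RPS29, 75 had the 20 summed counts needed for a comparison. The whole 95% exact interval of the ratio lay more than 2-fold toward IgG for 72 of the 75 and more than 2-fold toward MT1-MMP for 0. Over all 14318 protein-coding rows compared, 16.2% lay toward IgG and 7.24% toward MT1-MMP by the same rule. The median log2 ratio of MT1-MMP to IgG on the TMM scale was -4.63 over the 75 genes and 0.05 over all protein-coding rows. Intervals cover counting error only, and PCR copies without molecular identifiers cannot be told from separate molecules.

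Large and small subunits had similar median ratios. Of 45 large-subunit genes compared, 43 lay more than 2-fold toward IgG, with a median log2 ratio of -4.69 (interquartile range -5.19 to -3.15). Of 30 small-subunit genes without RPS29, 29 did, with a median of -4.61 (-4.99 to -4.08). The difference of the medians, large minus small, was -0.08. Single genes ran from -6.92 to 1.03 in the large subunit and from -7.11 to -0.43 in the small. Summed MT1-MMP and IgG counts were 14322 and 5213 for the large subunit, and 9390 and 3095 for the small. The log2 ratio of the sums was -4.06 (-4.11 to -4.02) for the large subunit and -3.92 (-3.98 to -3.86) for the small, a small difference beyond counting error in these libraries. The large subunit held 60.4% of the members' MT1-MMP counts (95% exact interval 59.8 to 61.0). Of their IgG counts it held 62.7% (61.7 to 63.8), and these intervals do not overlap. Sums lean on few genes: RPL31, RPS3, RPS24, RPL37A and RPS9 held 28.2% of the members' MT1-MMP counts. The intervals of sums and shares leave out the spread between genes, so no general difference between the subunits is read from them.

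The scale sets which genes lie on which side. By plain CPM the median log2 ratio of the 75 genes was -0.39, against 4.29 over all protein-coding rows. On that scale 8 genes lay more than 2-fold toward IgG and 12 toward MT1-MMP, where 0.691% and 86.1% of protein-coding rows did. The plain CPM interval lay wholly on the IgG side of equality for 38 genes, wholly on the MT1-MMP side for 22, and held equality for 15. With totals outside the block, 70 genes lay more than 2-fold toward IgG and 0 toward MT1-MMP (protein-coding rows 11.2% and 17.8%).

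**Figure D1:**
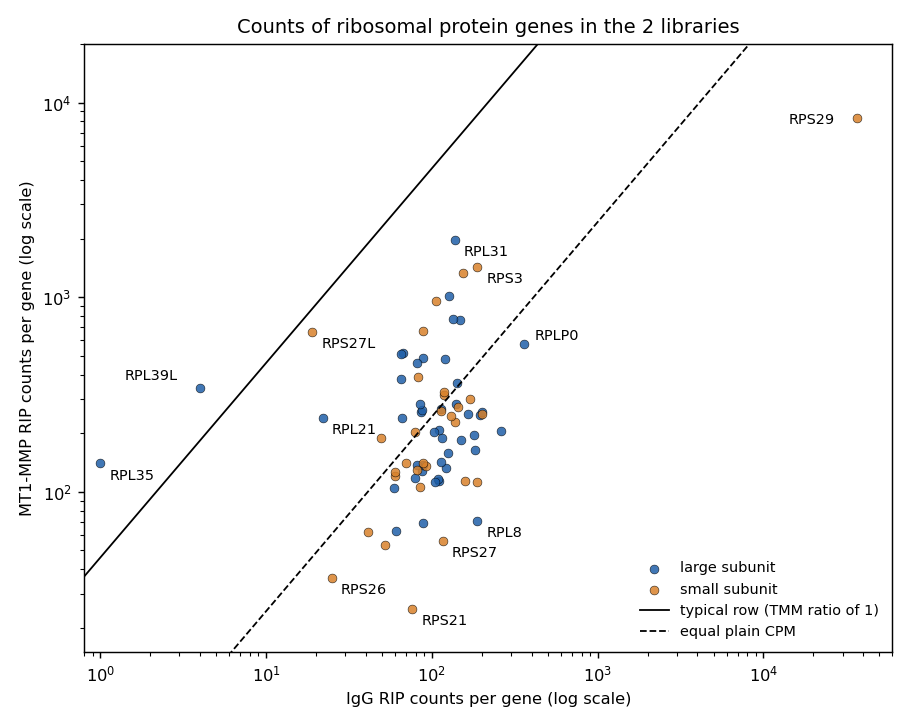
Counts of 76 ribosomal protein genes in the IgG library (x axis) and the MT1-MMP library (y axis), both on log scales, with the large subunit in blue and the small subunit in orange. The solid line is a TMM ratio of 1 and the dashed line equal plain CPM. Nearly all genes form a column around 100 IgG counts that crosses the dashed line, RPS27L, RPL39L and RPL35 lie near the solid line, and RPS29 stands alone at 36627 IgG counts.

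In the large subunit, the lowest ratio was that of RPL8, a core protein near the peptidyl transferase centre. RPL8 had 71 MT1-MMP counts and 188 IgG counts, so that even the raw count was higher in the IgG library (log2 ratio -6.92 on the TMM scale, 95% interval -7.34 to -6.52). RPL13A, which also has a role in translational silencing of inflammatory mRNAs, had 206 MT1-MMP and 261 IgG counts (-5.86, -6.13 to -5.59). RPL6 had 164 and 181 counts (-5.66, -5.98 to -5.35), and RPL3, which helps to shape the peptidyl transferase centre, had 195 and 179 (-5.40, -5.70 to -5.10). All of these ratios remained on the IgG side by plain CPM, from -1.16 for RPL3 to -2.68 for RPL8. Raw IgG counts exceeded raw MT1-MMP counts in 8 of the 75 genes, although the MT1-MMP library had more counts in total.

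The stalk proteins RPLP0, RPLP1 and RPLP2 form the flexible arm that recruits elongation factors. RPLP0 had 575 MT1-MMP and 358 IgG counts (log2 ratio -4.84 on the TMM scale, -5.03 to -4.64). RPLP1 had 159 and 125 counts (-5.17, -5.52 to -4.82), and RPLP2 had 69 and 89 (-5.89, -6.36 to -5.42). The interval of RPLP2 lay below that of RPLP0, and that of RPLP1 overlapped both. RPLP0 was followed in IgG counts by RPL13A, by RPL15 with 201 (257 MT1-MMP counts, -5.17), by RPS18 with 201 and by RPL4 with 195 (249 MT1-MMP counts, -5.17). RPL15 overlaps NKIRAS1, whose row held 948 and 226 counts, so its reads cannot be told from that gene's.

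RPL5 and RPL11 enter the ribosome together with the 5S ribosomal RNA and, when free, bind the p53 regulator MDM2. They differed from each other. RPL11 had 189 MT1-MMP and 115 IgG counts (-4.81, -5.15 to -4.46), whereas RPL5 had 764 and 147 (-3.15, -3.40 to -2.88), with intervals that do not overlap. RPL5 overlaps DIPK1A, whose row held 2762 MT1-MMP and 164 IgG counts, so some of these reads may be shared.

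At the other end of the large subunit were genes with high MT1-MMP counts at ordinary IgG counts. RPL31, a protein at the exit of the peptide tunnel, had 1963 MT1-MMP counts, the most of the 75 genes, and 137 IgG counts (-1.68, -1.93 to -1.42). Its row overlaps TBC1D8, which held 7629 and 65 counts. RPL37A had 1018 and 127 counts (-2.52, -2.79 to -2.24) with no overlapping gene. RPL35A, one of the genes mutated in Diamond-Blackfan anaemia, had 512 and 65 counts (-2.55, -2.92 to -2.15), and it overlaps DRC9, whose row held 1349 and 73. RPL21 reached a similar ratio from the other side, with an ordinary 240 MT1-MMP counts and 22 IgG counts (-2.10, -2.70 to -1.37). By plain CPM each of these 4 lay toward MT1-MMP, between 1.69 and 2.55.

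In the small subunit, RPS21 had the fewest MT1-MMP counts of the members compared, 25, and 76 IgG counts (-7.11, -7.84 to -6.46). RPS27, a zinc-finger protein, had 56 and 116 counts (-6.56, -7.06 to -6.10), and RPS2, which lines the mRNA entry channel, had 112 and 187 (-6.26, -6.61 to -5.91). RPS18, in the head of the subunit, had 250 and 201 counts (-5.21, -5.48 to -4.93). RPSA, which also serves as a laminin-binding protein at the cell surface, had 274 and 144 (-4.59, -4.89 to -4.29), close to the median of the subunit. These 5 remained toward IgG by plain CPM, from -2.87 for RPS21 to -0.36 for RPSA.

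Apart from RPS27L, the small-subunit genes with the highest ratios were RPS9, RPS24, RPS3 and RPS19. RPS9 had 956 MT1-MMP and 106 IgG counts (-2.35, -2.64 to -2.04), and RPS24 had 1326 and 155 (-2.43, -2.66 to -2.17). RPS3, which also acts in DNA repair, had 1435 and 188 counts (-2.59, -2.81 to -2.36). RPS19, the gene most often mutated in Diamond-Blackfan anaemia, had 668 and 88 (-2.60, -2.92 to -2.26). Their IgG counts were within the usual range of the family and their MT1-MMP counts were above its median of 207. By plain CPM they lay toward MT1-MMP, between 1.63 and 1.88.

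**Figure D2:**
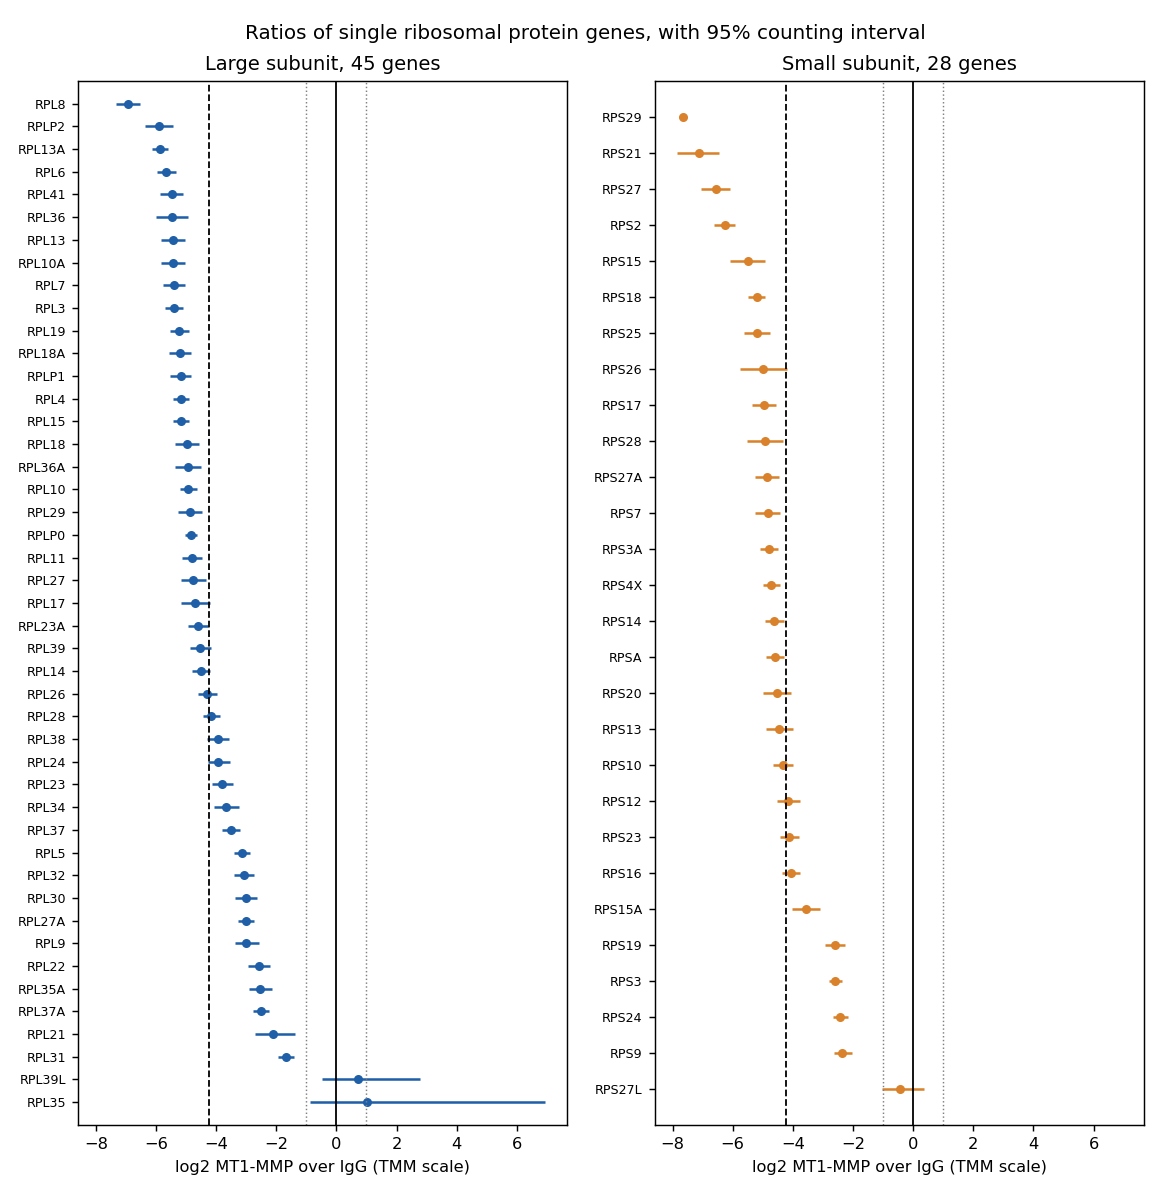
Log2 ratio of MT1-MMP to IgG counts on the TMM scale (x axis) for 45 large-subunit and 28 small-subunit genes, each point with its 95% exact counting interval. The solid line is the typical row, dotted lines mark 2-fold, and the dashed line at -4.24 is equal plain CPM. Of these genes all but RPS27L, RPL39L and RPL35 have intervals wholly left of both dotted lines.

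Apart from RPL39L and RPL35, the remaining large-subunit genes compared lay between -5.48 for RPL41 (113 MT1-MMP and 110 IgG counts) and -2.59 for RPL22 (514 and 67). Other small-subunit genes included RPS15 at -5.49 (53 and 52) and RPS15A at -3.58 (190 and 49). Genes for proteins known for other roles fell between these values. RPS27A, made as a fusion with ubiquitin, had 140 and 89 counts (-4.87). RPS4X, on the X chromosome, had 298 and 170 (-4.71), and RPL10, needed for the subunits to join, had 252 and 166 (-4.92). RPS26 rested on the fewest counts among them, 36 and 25, and its interval ran from -5.77 to -4.20.

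Copies of ribosomal protein genes behaved unlike their partners in several cases. RPS27L, a p53-inducible copy of RPS27, had 665 MT1-MMP and 19 IgG counts, and its log2 ratio of -0.43 (-1.05 to 0.35) held the typical row. The ratio of RPS27L lay 6.14 above that of RPS27 on the log2 scale, and their intervals were far apart. RPL39L, a testis-enriched copy of RPL39, had 343 and 4 counts (0.73, -0.47 to 2.79), against 204 and 103 for RPL39 (-4.54, -4.88 to -4.18), a difference of 5.27. RPL3L, a muscle copy of RPL3, had 7 MT1-MMP and 0 IgG counts, and RPL10L, a testis copy of RPL10 without introns, had 0 in both, so neither was compared. Outside the name rule, RPL22L1 had 227 and 4 counts (0.14, -1.07 to 2.19) against -2.59 for RPL22, whereas RPL36AL, with 56 and 59 counts, lay at -5.60 (-6.15 to -5.04), close to RPL36A at -4.94 (-5.37 to -4.51). RPL7L1 had 579 and 121 counts (-3.27) and RPL7 132 and 122 (-5.41). The difference between a copy and its partner therefore varied in size from pair to pair. For RPL36AL it was of opposite sign, with intervals that overlap. Copies and partners also differed in span. RPS27L spans 9.23 kb and RPS27 1.39 kb, and RPL39L spans 18.5 kb and RPL39 5.13 kb. RPL22L1 went the other way, with 5.32 kb against 14.6 kb for RPL22. Whether span accounts for differences between copies was not tested.

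RPS29 had 8298 MT1-MMP counts and 36627 IgG counts, the most of all 81 members in each library (log2 ratio -7.66 on the TMM scale, -7.70 to -7.63). RN7SL1, a gene for the RNA of the signal recognition particle, lies inside its 27.7 kb span, and its row held 7595 and 36579 counts (-7.79, -7.82 to -7.75). The rows differed by 703 MT1-MMP and 48 IgG counts. If those are taken as the reads of RPS29 that RN7SL1 does not share, the log2 ratio would be -1.66 (-2.07 to -1.19), near those of RPL31 and RPL21, but the rule for reads in overlapping rows was not given in the sources used here. RefSeq's start of RPS29 has no TOP tract.

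All 4 members on chromosome 9 had 0 or 1 IgG counts. RPS6, the substrate of S6 kinases, had 10 MT1-MMP and 0 IgG counts. RPL7A had 4 and 0, RPL12 had 0 and 0, and RPL35 had 140 and 1 (log2 ratio 1.03, -0.89 to 6.92). Outside chromosome 9, the 74 members compared had between 4 and 358 IgG counts, with a median of 107.5. The low IgG counts were not particular to ribosomal proteins: of 228 protein-coding genes on chromosome 9 with spans up to 10 kb, 1.75% had 10 or more IgG counts, against 8.11% to 32.5% on 22 other chromosomes (Y left out), where the next lowest after chromosome 21 was 17.2%. HNRNPK, SET, VCP and TLN1, abundant genes of chromosome 9 picked after their values were seen, had 23, 14, 4 and 6 MT1-MMP counts and 0 IgG counts each. HSPA5, picked in the same way, had 239 and 0. In the MT1-MMP library, protein-coding genes of chromosome 9 had a median of 1.85 counts per kb of span. The lowest such median elsewhere, with Y left out, was 2.87, on X. The chromosome 9 median of 58 MT1-MMP counts per gene lay within the range elsewhere, 53.5 to 522. All 5 snoRNA rows inside RPL12 and RPL7A were at 0 in both libraries, yet the pseudogenes of RPL12 and RPL7A, nearly identical copies of their mRNAs elsewhere in the genome, summed to 48 and 77 IgG counts. Those of RPS6 held 1 IgG count and those of RPL35 held 0. The cause of the low chromosome 9 counts was not tested, and counts of these 4 genes are not read as levels below. Without them, 72 of 74 genes lay more than 2-fold toward IgG, with a median log2 ratio of -4.66.

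Over the 74 members outside chromosome 9 and without RPS29, MT1-MMP counts followed gene span (start to end, introns included) and IgG counts did so far less. Spearman's rho with span was 0.73 for MT1-MMP counts, 0.16 for IgG counts and 0.65 for the ratio. Over the 28 of them whose span overlaps no other gene the values were 0.63, 0.14 and 0.67. Over all 14318 protein-coding genes compared they were 0.57, 0.16 and 0.62. These correlations are across genes, which are not independent replicates and share both libraries. The 15 genes with spans under 3 kb had a median of 71 MT1-MMP and 88 IgG counts, and a median log2 ratio of -5.47. The 32 genes from 3 to 6 kb had 205 and 111.5 (-4.78), and the 18 from 6 to 10 kb had 259 and 107.5 (-3.63). The 9 genes of 10 kb and over had 514 and 139 (-2.59). Exceptions in the last class were RPL6 (13.7 kb, -5.66), RPL14 (11.2 kb, -4.49) and RPL28 (17.4 kb, -4.16).

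Short span is common to many genes, so members were set beside other protein-coding genes of like span. Among the 10% of compared protein-coding genes that were shortest by span, up to 6.68 kb, 49 of 49 members lay more than 2-fold toward IgG (median log2 ratio -4.87), and 746 of 1382 other genes did (54.0%, median -2.65). In the next 10%, up to 12.2 kb, 16 of 17 members (median -3.68) and 538 of 1415 other genes (38.0%, median -1.65) did. From there up to 18.3 kb 5 of 5 members did, against 24.5% of the other genes, and up to 26.4 kb 2 of 3 did, against 15.3%. In the shortest 10% the members had a median of 140 MT1-MMP and 103 IgG counts, and the other genes 52 and 8. Intervals widen as counts fall, so members and other genes also differed in how readily a gene could be counted. These are descriptions, since the members were not drawn at random.

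By counts as such, members had a median of 217.5 in the MT1-MMP library, below the 388 of all compared protein-coding genes, and 0 of 74 were in the top 10%. Their median IgG count was 107.5 against 12, and 63 of 74 were in the top 10%. Per kb of span, members ranked high in both libraries but higher in the IgG library. Their median was 21.4 IgG counts per kb, against 0.33 over all compared protein-coding genes, and 72 of 74 were in the top 10% of those genes. In the MT1-MMP library the median was 40.9 counts per kb against 13.7, and 22 of 74 were in the top 10%. Members also varied less in the IgG library, where the standard deviation of log2 counts among them was 0.92, against 1.22 in the MT1-MMP library. Without RPS29 the members took 0.109% of protein-coding MT1-MMP counts (95% exact interval 0.108 to 0.111) and 1.22% of protein-coding IgG counts (1.19 to 1.25).

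The snoRNA rows inside ribosomal protein genes lay even further toward IgG than their hosts. Of 60 snoRNA genes annotated inside 29 members, 54 had a row of their own name. The 49 outside chromosome 9 summed to 568 MT1-MMP and 569 IgG counts, a log2 ratio of -5.52 on the TMM scale (-5.69 to -5.35), and the counts of their 24 host genes summed to 7269 and 2902, a ratio of -4.20 (-4.26 to -4.13). Raw IgG counts exceeded MT1-MMP counts in 22 of the 49. SNORD72 in RPL37 stood lowest, with 8 MT1-MMP and 52 IgG counts (-8.15). SNORA33 in RPS12 had 7 and 19, SNORD73A in RPS3A had 8 and 19, and SNORA52 in RPLP2 had 9 and 20. SNORD21 in RPL5 stood among the highest, with 23 and 7 (-3.87). Most of these rows held under 20 counts in each library, and as read lengths and counting rules were not given in the sources used here, reads of a mature snoRNA cannot be told from those of the host's intron. The 27 compared members with a snoRNA had a median log2 ratio of -4.54, and the 47 without one -4.81.

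Pseudogenes limit how firmly single members can be read, because reads of an mRNA may be placed in a processed copy. The name pattern found 1290 pseudogene rows for 77 members, of which 1010 had 0 IgG counts, and together they held 21338 MT1-MMP and 2896 IgG counts. For 11 members the pseudogene rows together held more IgG counts than the gene. Among these were RPS6, RPL12 and RPL7A on chromosome 9. RPL21, with 22 IgG counts of its own, had 136 in its 73 pseudogene rows, and RPS26, with 25, had 49. Whether reads of these mRNAs were placed there was not tested. RPSA had 144 against 290 and RPL23A 110 against 206. Of 248 pseudogene rows compared, 73 lay more than 2-fold toward IgG and 0 toward MT1-MMP (median log2 ratio -0.90). Of all rows compared, 12.8% and 5.9% did. The 0 cannot be read as a result, because a row with 0 IgG counts needed 341 MT1-MMP counts to be counted. The median of the pseudogene rows was 30.5. Their median span was 0.63 kb, against 28.9 kb for all rows compared. Among other protein-coding genes up to 6.68 kb, 54.0% lay toward IgG. The shares of all rows are therefore no like-for-like benchmark for the pseudogene rows. The rows with the lowest upper interval bounds were RPL3P4 with 9 MT1-MMP and 38 IgG counts (-7.54, -8.83 to -6.53), RPL13AP25 with 24 and 67 (-6.98), RPL7P23 with 11 and 36 (-7.19) and RPL23AP42 with 35 and 85 (-6.79). RPL3P4 and RPL7P23 had under 20 MT1-MMP counts. They reached the 20 summed counts only through the IgG library, where they are high. Such rows can enter the comparison by their IgG counts alone, so the 73 toward IgG is not read as a result either. RPLP0P6, picked after its values were seen, held 174 of the IgG counts and 83 MT1-MMP counts (-6.58, -6.98 to -6.20), beside 358 IgG counts in RPLP0. At the other end were RPS10P7 with 2650 and 21 (1.43, 0.84 to 2.15) and RPL3P6 with 266 MT1-MMP and 0 IgG counts.

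Members with and without a TOP start lay on the same side. The 38 members with a TOP start that were compared outside chromosome 9 had a median log2 ratio of -4.40 (range -7.11 to -1.68), and all 38 lay more than 2-fold toward IgG. The 20 members without one at the annotated base had a median of -4.92 (range -5.66 to -0.43), and 19 did, the exception being RPS27L. Median spans were 5.14 and 4.93 kb. Outside the family, 130 of 562 protein-coding genes with a TOP start lay more than 2-fold toward IgG (23.1%, median -0.22), against 1731 of 11091 without one (15.6%, median 0.07), and their median spans were 29.5 and 38.1 kb. Annotated starts can be off by some bases, so a gene without the tract in this window may still have one.

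On the TMM scale, lists of other translation genes had medians on the same side, less far. Over all compared protein-coding rows 16.2% lay more than 2-fold toward IgG and 7.24% toward MT1-MMP on that scale. By plain CPM the list medians lay on the MT1-MMP side. They were 0.696 for ribosomal proteins under other names, 0.9995 for other TOP genes and 2.54 for assembly factors. The plain CPM median was -0.39 for the members and 4.29 over all protein-coding rows. Genes more than 2-fold toward IgG and MT1-MMP by plain CPM were 1 and 1, 1 and 8, and 0 and 22 in these lists. Spans differed too. Their medians were 7.01 kb for ribosomal proteins under other names, 14.4 kb for other TOP genes and 22.4 kb for assembly factors. The 75 members had a median span of 5.035 kb. Of 7 ribosomal proteins under other names, 5 lay more than 2-fold toward IgG and 0 toward MT1-MMP, with a median log2 ratio of -3.54. FAU, whose product is cut into a ubiquitin-like protein and ribosomal protein S30, had 17 MT1-MMP and 52 IgG counts (-7.11, -8.02 to -6.32), about the same as RPS21. RACK1, a signalling scaffold on the small subunit, had 644 and 245 counts (-4.13, -4.34 to -3.91). RPL26L1 had 59 and 6 counts, and its interval (-3.43 to -0.72) crossed the 2-fold line.

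Of 18 other genes known for TOP mRNAs, 15 lay more than 2-fold toward IgG and 0 toward MT1-MMP (median -3.24). The lowest ratios were those of elongation factor genes: EEF2 had 146 MT1-MMP and 194 IgG counts (-5.93, -6.25 to -5.61), EEF1B2 55 and 63 (-5.71), and EEF1A1 3087 and 2535 (-5.24, -5.31 to -5.16). EEF1G, another subunit of the elongation factor complex, had 470 and 269 (-4.72). EEF1D, of the same complex, was among the least shifted of the 15, with 1523 and 127 (-1.94). The 3 genes not counted were NAP1L1 (48.1 kb, -0.27), EIF3E (47.5 kb, 0.13) and EIF3H (124.2 kb, 1.01), which have the longest spans of the 18.

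Ribosome assembly factors act in the nucleus and cytoplasm to build the subunits and do not stay in the ribosome. The list used here also holds genes for the transcription of ribosomal RNA, such as POLR1A, POLR1B, UBTF and RRN3. Of 33, 16 lay more than 2-fold toward IgG, 0 toward MT1-MMP and 17 neither way, with a median log2 ratio of -1.70. NCL, the abundant nucleolar protein nucleolin, had 300 MT1-MMP and 275 IgG counts (-5.40, -5.64 to -5.15). NOP10, a subunit of the pseudouridylation complex, had 19 and 15 (-5.19), EIF6, which keeps the subunits apart, had 251 and 77 (-3.82), and NHP2 had 69 and 24 (-4.02). EFL1, which releases EIF6, had 2010 and 24 (0.84, 0.29 to 1.51), and NMD3, an export adaptor of the large subunit, had 1605 and 22 (0.64, 0.065 to 1.35). NOL6 had 21 and 0 and is among the 17, but it lies on chromosome 9, so its counts are not read as a level.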

How the data were processed

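RNA of 1 MT1-MMP RIP and 1 IgG RIP was sequenced. The deposited table holds raw read counts per gene row, made by the authors with cutadapt, HISAT2 and SAMtools on hg38, per the submitters' processing notes. Versions, the counting tool, annotation and strand use were not given in the sources used here. Columns were tied to libraries by the names in the labels. From the counts, ratios were scaled by TMM (edgeR 4.0.16) over the 25933 rows with at least 20 summed counts. Log2 ratios had 0.5 counts added per library. Exact (Clopper-Pearson) 95% intervals were conditional on the summed count, and a gene was counted where the interval lay beyond 2-fold. Interval calls were tested on simulated counts with counting error only and the ribosomal DNA block left out. That test cannot show the effect of PCR copies or of the block. Spans, classes and positions came from RefSeq (GRCh38.p14), matching 39009 rows. Strand was not available for snoRNA rows, so any inside a member's span was taken. Members and lists were chosen with earlier results of these data known. Named in full were the 5 genes with the lowest and the 5 with the highest upper interval bound in each subunit, genes not counted, the 5 with most IgG counts, RPS29, the stalk proteins and RPSA, and copies. From each further list up to 4 genes with the lowest upper bound and up to 2 with the highest lower bound were named. RPL5, RPL11, RPL37A, RPLP0P6 and members given by role were added after their values were seen. Results of some single genes that the rule names are not reported here. Alternatives were other scales (including DESeq2 1.42.0 size factors), added counts, minimum counts, fold limits and left-out genes.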

Additional observations from a re-analysis of the deposited data

How the results depend on the processing

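With 1 library a group, no library could be left out. No paired analysis was possible because each group has a single library. The 72 genes more than 2-fold toward IgG (43 large, 29 small) and 0 toward MT1-MMP changed most by scale. By plain CPM they became 8 and 12, with 4 and 4 toward IgG by subunit. Without the members that overlap other genes, 29 were left, of which 27 lay toward IgG, 13 large and 14 small. The median log2 ratio, -4.63, was -0.39 by plain CPM and -3.99 with totals outside the ribosomal DNA block, and lay from -4.71 to -4.49 under the other alternatives run. The difference between subunit medians lay from -0.11 to 0.06. By plain CPM, 25 genes toward IgG on the TMM scale had log2 ratios above 0, among them RPL31 at 2.55, RPL21 at 2.14, RPS9 at 1.88, RPS24 at 1.81, RPL37A at 1.72, RPL35A at 1.69, RPL22 at 1.65, RPS3 at 1.65, RPS19 at 1.63, RPL9 at 1.25, RPL27A at 1.22, RPL30 at 1.22, RPL32 at 1.16, RPL5 at 1.09, RPL37 at 0.72, RPS15A at 0.66, RPL34 at 0.56, RPL23 at 0.44, RPL24 at 0.31, RPL38 at 0.30, RPS16 at 0.17, RPS23 at 0.11, RPL28 at 0.075 and RPS12 at 0.073. This change of sign follows from the scale, which moves every gene by 4.24. The alternative without chromosome 9 was chosen after seeing the data. Depth limits calls toward MT1-MMP, since with 0 IgG counts 341 MT1-MMP counts were needed.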
